A study of Mus musculus with 6 samples.

Results

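Endothelial cells line the blood vessels of the testis, and their transcripts were followed here through 10 marker genes chosen by symbol: Cdh5, Pecam1, Kdr, Tek, Tie1, Eng, Flt1, Emcn, Egfl7 and Esam. All 10 were found among the 57170 gene identifiers of the count table. The tissue was whole mouse testis at postnatal day 5, from which polyadenylated RNA was sequenced. The sKO group holds 4 libraries, sKO-1 to sKO-4, of mice with a conditional knockout of Mdm2 in germ cells before meiosis; the Cre driver, the alleles and the meaning of the letter s, not given in the sources used here, limit what can be said of the model. The WT group holds 2 libraries, WT-1 and WT-2, of mice labelled wild type. Both groups share tissue and age, and the labels name no treatment. The series' design text gives another number of replicates per group than the labels, and the labels were followed. Nothing in the labels ties a library to a separate animal, so the spread behind every p-value is that between libraries and may be technical.

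Mdm2 encodes a ubiquitin ligase that restrains p53. The targeted gene was at 37.5, 47.3, 41.8 and 45.01 CPM (counts relative to TMM-scaled library size) in sKO-1 to sKO-4, against 67.1 and 75.8 CPM in WT-1 and WT-2, a log2 fold change of -0.74 (SE 0.11) with an edgeR adjusted p of 0.0241. Over left-out libraries the adjusted p of Mdm2 ran from 0.0489 (without sKO-1) to 0.171 (without WT-1), and it was under the threshold only without sKO-1 or sKO-4. The libraries held 17.99 to 18.4 M (mega) expected counts. On the first principal component, computed without the 10 markers and carrying 38.1% of the variance, sKO-1, sKO-2 and WT-1 lay on one side (subset 1) and sKO-3, sKO-4 and WT-2 on the other (subset 2). No batch is named in the labels. Since 2 sKO libraries and 1 WT library fall in each subset, results are also given within subsets. The subsets were read from these same libraries, and each holds 1 WT library. The p-values of fits within a subset may therefore be too small. Passing in several fits of the same libraries is not separate support.

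The markers cover the main tasks of a vessel wall. Vascular endothelial growth factors act on the receptor tyrosine kinases encoded by Kdr and Flt1, angiopoietins act on the one encoded by Tek, whose relative Tie1 modifies its signal, and Eng encodes endoglin, a co-receptor for ligands of the TGF-beta family. Cdh5 encodes VE-cadherin, the cadherin of endothelial adherens junctions, and Pecam1 and Esam encode immunoglobulin-family adhesion proteins of the same cell borders. Emcn encodes the sialomucin endomucin, and Egfl7 a secreted matrix protein whose gene hosts the microRNA miR-126. Vessels of the newborn testis run between the seminiferous cords, in the interstitium that also holds Leydig cells, pericytes, fibroblasts and macrophages.

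Many endothelial genes carry binding sites of ETS transcription factors, whose core motif is GGAA. RefSeq promoter windows (build GRCm38.p6, which is not the mm39 build of the counts) were at hand for 7 of the 10 markers, in 9 windows; Cdh5, Pecam1 and Esam had none. GGAA, read on both strands, was found in 9 of the 9 windows, but also in 96.0% of all 32851 windows. The longer CAGGAA, which contains GGAA, was found in 6 of the 9 windows and in 30.6% of all windows. The 150 bases before the start are shown for the Emcn gene (chr3:137340928-137341077, plus strand), which had the largest estimate among the markers with a window, for the Tek gene (chr4:94739139-94739288, plus strand), and for the Kdr gene (chr5:75978456-75978605, minus strand), which had the lowest estimate. Capitals mark GGAA or its reverse complement TTCC. These matches describe the letters only and do not show that a factor binds there.
Emcn: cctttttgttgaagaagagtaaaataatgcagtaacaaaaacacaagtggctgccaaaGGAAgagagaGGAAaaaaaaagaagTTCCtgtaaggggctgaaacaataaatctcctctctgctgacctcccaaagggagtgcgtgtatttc
Tek: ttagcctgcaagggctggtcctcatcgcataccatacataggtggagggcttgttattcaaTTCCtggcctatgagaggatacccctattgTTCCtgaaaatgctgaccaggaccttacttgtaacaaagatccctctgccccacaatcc
Kdr: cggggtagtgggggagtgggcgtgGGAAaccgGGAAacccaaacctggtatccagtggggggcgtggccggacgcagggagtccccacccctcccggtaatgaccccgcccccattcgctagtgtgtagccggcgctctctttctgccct

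The markers were present in every library but at unlike levels. Expected counts ran from 123 (Emcn in WT-1) to 2934 (Cdh5 in sKO-3), and all 10 passed the filter on low counts. Scaled to the length of its merged exons, Cdh5 stood highest, at 35.5 ± 4.30 CPM per kb in sKO and 29.4 ± 2.61 in WT (SD, n = 4 and n = 2). Eng followed at 15.6 ± 1.04 CPM per kb in sKO and 13.4 ± 1.21 in WT. Next came Pecam1 at 6.22 ± 0.724 CPM per kb in sKO and 5.32 ± 0.0297 in WT, whose mean ± SD met that of the next gene, Egfl7, in WT but not in sKO. Egfl7 (4.69 ± 0.689 in sKO and 4.75 ± 0.818 in WT), Kdr (4.44 ± 0.666 and 4.75 ± 0.566) and Esam (4.08 ± 0.529 and 3.10 ± 0.0210) had overlapping ranges of mean ± SD in sKO. The pair of related receptors Tie1 (2.67 ± 0.3596 CPM per kb in sKO and 2.22 ± 0.384 in WT) and Tek (2.51 ± 0.310 and 2.14 ± 0.330) could not be separated by these spreads. Emcn stood at 1.56 ± 0.133 CPM per kb in sKO and 1.25 ± 0.100 in WT, and Flt1 was lowest at 0.669 ± 0.0867 in sKO and 0.619 ± 0.0971 in WT. Lengths are those of all annotated exons in GENCODE M21, 13.5 kb in the case of Flt1, and the exons used in this tissue were not measured, so the order is approximate.

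**Figure D1:**
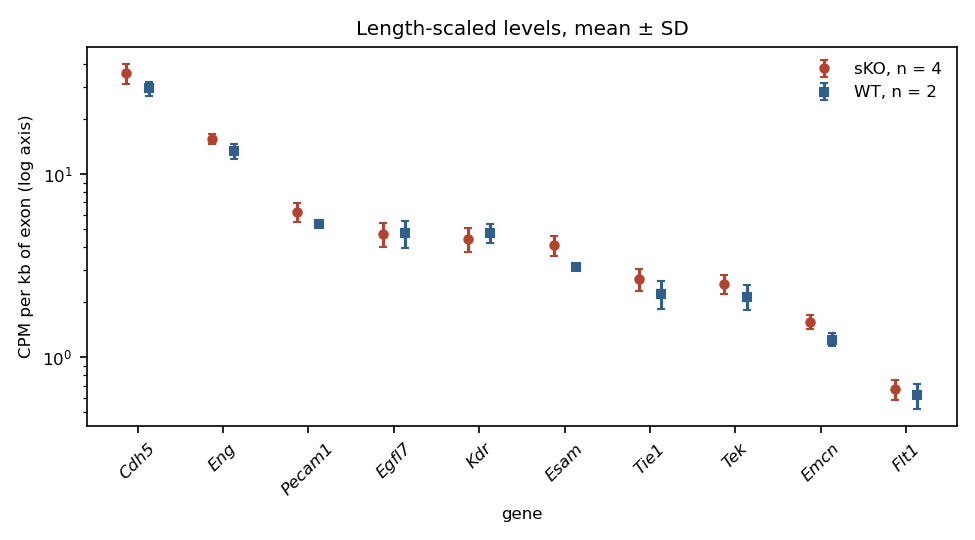
Length-scaled level of each endothelial marker gene (CPM per kb of merged exon, log axis) as mean and SD over 4 sKO and 2 WT libraries. Cdh5 (35.5 in sKO, 29.4 in WT) and Eng (15.6 and 13.4) stand above the other 8, and Flt1 (0.669 and 0.619) is lowest.

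The design gives 1 comparison, sKO with WT, in which the knockout was aimed at germ cells and not at vessels. No endothelial marker passed the test: 0 of 10 had an edgeR adjusted p under 0.05, where 2.43% of all 17707 genes did (22 higher in sKO, or 0.124%, and 408 lower, or 2.3%). At an unadjusted p under 0.05 the count was also 0 of 10 in edgeR, against 13.1% of all genes, and DESeq2 and limma-voom called 0 of 10 as well. The adjusted p of the 10 ran from 0.392 (Esam) to 0.985 (Egfl7). The estimates leaned upward: 8 of 10 log2 fold changes were above 0, with a median of 0.23, while 55.3% of all genes were above 0, with a median of 0.03. With library sizes taken from the Sertoli cell genes, 4 of 10 were above 0 and the median was -0.027, while that of all genes was -0.21. All 4 sKO libraries lay above both WT libraries at 3 of 10 markers (Pecam1, Emcn and Esam), against 9.79% of all genes, and below them at 0 of 10, against 13.3%. In whole tissue, a change in the number of endothelial cells and a change in RNA per cell cannot be told apart. A share of these transcripts from other cells cannot be told apart from either.

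The 95% intervals show what sizes the 6 libraries leave possible. They ran from a log2 fold change of -0.46 to 0.26 for Kdr, which bounds the fold at 0.728 to 1.2004, and up to -0.01 to 0.80 for Esam, a fold of 0.995 to 1.74. Of the 10 intervals, each contained 0. Eng was measured most tightly, with an SE of 0.10, followed by Cdh5 and Pecam1, each with an SE of 0.13. In counts simulated for this comparison over 17707 genes, edgeR called 5 of 67 genes changed 1.5-fold and 29 of 67 changed 2-fold, so shifts of the size estimated here would mostly be missed. For the abundant markers the spread between libraries exceeded counting error: the coefficient of variation over the sKO libraries was 12.1% for Cdh5 and 11.6% for Pecam1, where counting alone gives 1.93% and 3.79%. For Emcn, the marker with the lowest counts, these values were 8.53% and 8.09%.

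**Figure D2:**
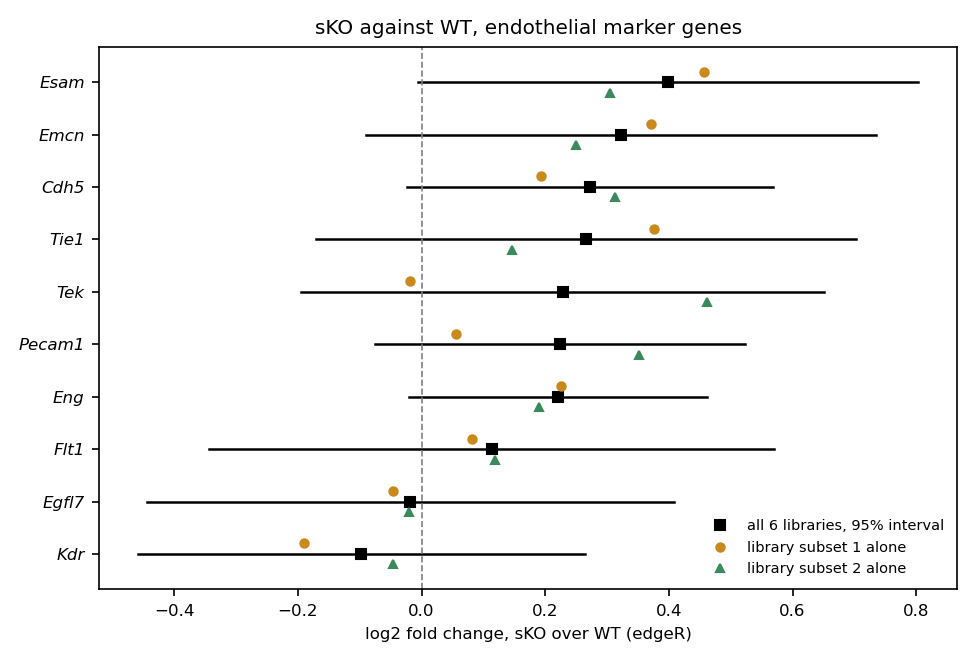
Estimated log2 fold change of sKO over WT for each endothelial marker gene with its 95% interval (squares, edgeR, all 6 libraries), and the estimates within library subset 1 (circles) and library subset 2 (triangles), each from 2 sKO libraries and 1 WT library. Every interval spans 0; estimates run from -0.10 for Kdr to 0.40 for Esam.

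Among the adhesion and surface proteins, Cdh5 was the most abundant marker. It was at 129, 140, 169 and 159 CPM in sKO-1 to sKO-4, against 116 and 131 CPM in WT-1 and WT-2. The groups overlapped only through sKO-1, which lay just under WT-2, and within each subset both sKO libraries were above the WT library. The log2 fold change of Cdh5 was 0.27 (SE 0.13, edgeR adjusted p = 0.435), a fold of 1.21 with a 95% interval of 0.984 to 1.48. With a term for the library subset the estimate was 0.27 (SE 0.06) and the adjusted p 0.0195, which made Cdh5 the 1 marker past the threshold in that fit, where 4.97% of all genes were called higher; 0 of 10 were lower there, against 8.65%. The subset term was read from these same libraries, so its p-values may be too small. When the libraries were scaled to their summed Sertoli cell genes, the Cdh5 estimate was 0.02 (adjusted p = 0.911).

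Pecam1, whose product is also carried by platelets and leukocytes, was at 34.4, 35.9, 44.3 and 40.4 CPM in sKO-1 to sKO-4 and at 33.3 and 33.0 CPM in WT-1 and WT-2. All sKO values were above both WT values, by little in subset 1 and by more in subset 2, with an estimated log2 fold change of 0.22 (SE 0.13) and an edgeR adjusted p of 0.548. Esam had 13.9, 11.0, 11.4 and 10.5 CPM in the sKO libraries, against 8.92 and 8.83 CPM in the WT libraries. These groups did not overlap, sKO-1 stood highest, and the log2 fold change of 0.40 (SE 0.17, adjusted p = 0.392) was the largest of the 10. Emcn, a marker of veins and capillaries, was at 8.25, 8.50, 7.67 and 9.41 CPM in sKO and at 6.38 and 7.15 CPM in WT. Again the groups did not overlap, and the log2 fold change was 0.32 (SE 0.18, adjusted p = 0.523).

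The receptor genes were less uniform. Kdr, which encodes the main signalling receptor for VEGF-A, was at 35.7, 34.2, 45.9 and 44.7 CPM in sKO-1 to sKO-4 and at 39.3 and 46.5 CPM in WT-1 and WT-2. The groups overlapped, yet in each subset both sKO libraries lay below the WT library. The estimate was -0.10 (SE 0.16) and the edgeR adjusted p 0.878. Flt1, which encodes a VEGF receptor that also acts as a decoy, was at 10.3, 9.68, 8.60 and 7.62 CPM in sKO and at 9.28 and 7.43 CPM in WT. The groups overlapped widely, and the log2 fold change was 0.11 (SE 0.20, adjusted p = 0.891). The ratio of Kdr to Flt1 CPM was 3.48, 3.54, 5.34 and 5.86 in the sKO libraries and 4.23 and 6.27 in the WT libraries, and so followed the library subset in both groups.

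Tek, the angiopoietin receptor gene, was at 10.8, 11.7, 14.0 and 11.0 CPM in sKO-1 to sKO-4, against 11.2 and 9.0025 CPM in WT-1 and WT-2. Tie1 was at 11.4, 13.9, 15.3 and 12.002 CPM in sKO and at 9.59 and 12.3 CPM in WT. For both genes sKO-3 was the highest library and the groups overlapped, with log2 fold changes of 0.23 (SE 0.18, edgeR adjusted p = 0.700) for Tek and 0.27 (SE 0.19, adjusted p = 0.652) for Tie1. The Tek estimate was 0.46 in subset 2 and -0.02 in subset 1, but the difference between subsets did not pass the test (interaction adjusted p = 0.806). Eng was at 63.1, 57.1, 65.6 and 66.4 CPM in sKO-1 to sKO-4 and at 50.6 and 57.6 CPM in WT-1 and WT-2. Only sKO-2 was below WT-2, and the log2 fold change was 0.22 (SE 0.10, adjusted p = 0.436), with near equal estimates of 0.23 in subset 1 and 0.19 in subset 2. With the subset term the adjusted p of Eng was 0.0507, just over the threshold.

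Egfl7, the secreted member, was at 14.2, 15.1, 19.0 and 18.8 CPM in sKO-1 to sKO-4, against 14.9 and 19.1 CPM in WT-1 and WT-2. Its values split by library subset and not by genotype, with an estimated log2 fold change of -0.02 (SE 0.18) and an edgeR adjusted p of 0.985. The Egfl7 gene overlaps Agpat2, which lies on the opposite strand and was at 9.73 ± 1.45 CPM in sKO and 7.57 ± 0.441 in WT (SD, n = 4 and n = 2). Eng likewise overlaps Fpgs, at 18.8 ± 1.53 CPM in sKO and 18.9 ± 2.20 in WT, and Cdh5 overlaps the antisense gene Gm29682, at 0.283 ± 0.188 CPM in sKO and 0.190 ± 0.0491 in WT. Strand use in counting, not given in the sources used here, affects how well such pairs are kept apart. The overlaps are of gene spans, and whether exons are shared was not examined. Whether reads of such pairs were fully separated was not tested. Expected counts were whole numbers in all 6 libraries for 9 of the markers, including the related pairs Kdr and Flt1 and Tek and Tie1. Expected counts of Agpat2, Fpgs and Gm29682 were also whole in all 6. Those of Pecam1 were not whole in any of the 6, as happens where reads match several genes or places, so its level is less certain.

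**Figure D3:**
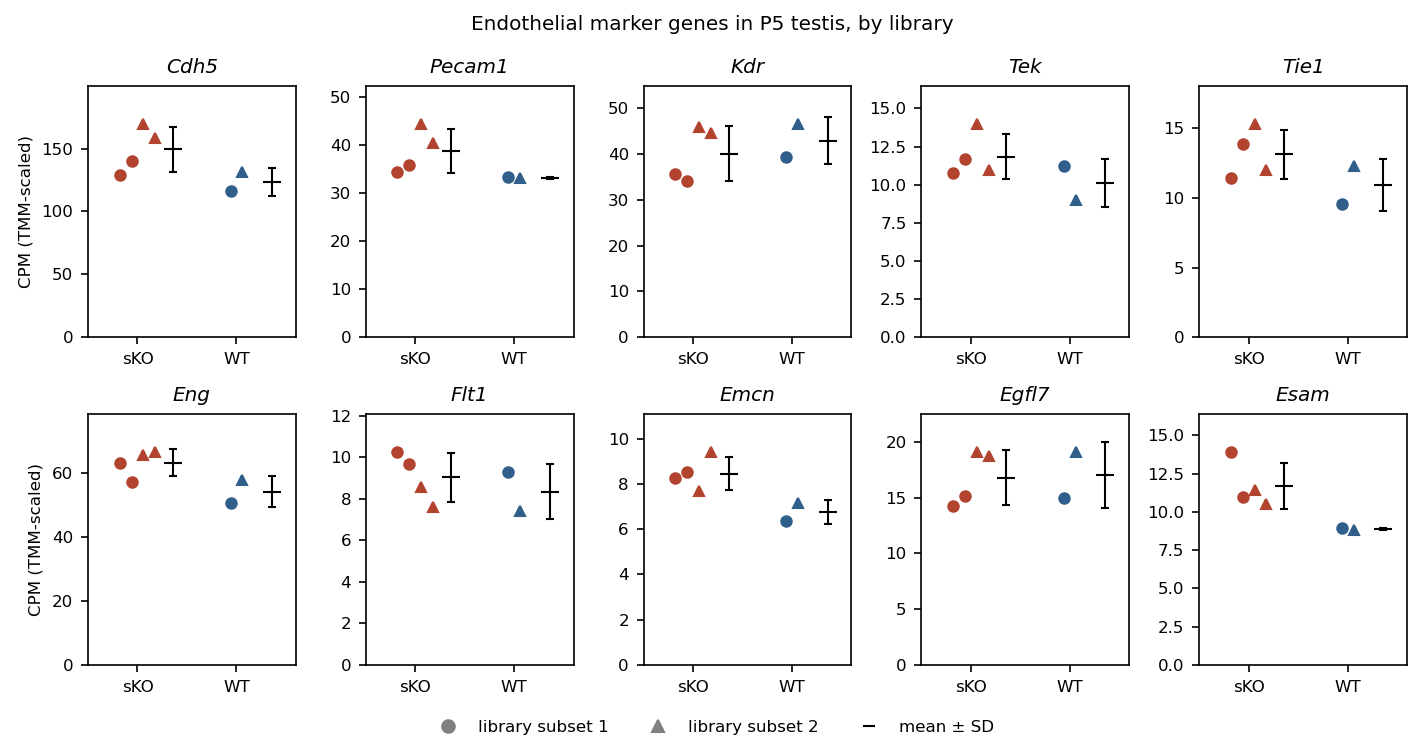
CPM (TMM-scaled) of each endothelial marker gene in the 4 sKO and 2 WT libraries, with circles for library subset 1, triangles for library subset 2, and the mean with its SD beside each group. All sKO points are above both WT points for Pecam1, Emcn and Esam, while Kdr and Egfl7 divide by subset within both groups.

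Summed over the 10 markers, the level was 331, 337, 401 and 379 CPM in sKO-1 to sKO-4, against 299 and 332 CPM in WT-1 and WT-2. The means were 362 ± 33.8 CPM in sKO and 316 ± 23.2 CPM in WT, a ratio of 1.15, and sKO-1 lay just below WT-2. Cdh5 carried 41.2% of that sum in sKO and 39.1% in WT. Without Cdh5 the other 9 gave 213 ± 16.2 CPM in sKO and 192 ± 12.3 in WT, a ratio of 1.11, and without Cdh5 and Eng the remaining 8 gave a ratio of 1.08.

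The markers did not move as one block over the 6 libraries. Between the pair of sKO libraries of subset 2 and that of subset 1, the difference in log2 CPM was above 0 for 8 of 10 markers and ran from -0.30 (Flt1) to 0.37 (Kdr). Between WT-2 and WT-1 it was above 0 for 6 of 10, and for 8 of 10 markers it had the same sign as in sKO. Kdr, Egfl7 and Cdh5 were higher in subset 2 in both groups (0.37, 0.36 and 0.29 in sKO and 0.24, 0.35 and 0.18 in WT), and Flt1 was lower (-0.30 in sKO and -0.32 in WT). Within each subset, both sKO libraries were above the WT library at 6 of 10 markers (Cdh5, Pecam1, Eng, Flt1, Emcn and Esam), against 25.4% of all genes. They were below it at 1 of 10 (Kdr), against 22.6% of all genes, and mixed at Tek, Tie1 and Egfl7. For none of the 10 did the sKO effect differ between subsets past the threshold (interaction adjusted p from 0.801 for Pecam1 to 0.995 for Egfl7 in edgeR; the unadjusted p was lowest for Pecam1, at 0.101).

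**Figure D4:**
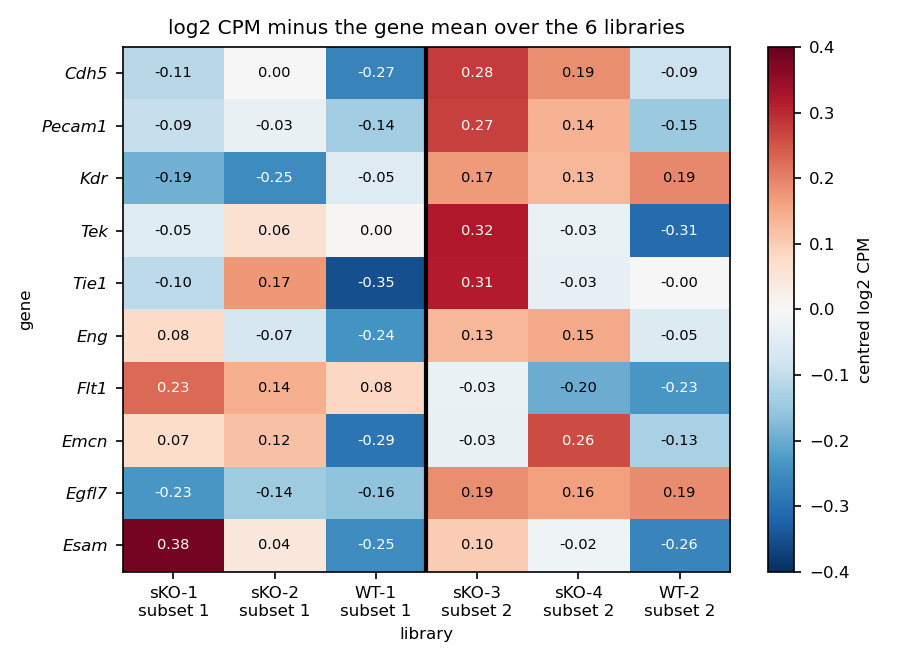
Log2 CPM of each endothelial marker gene minus its mean over the 6 libraries, with libraries ordered by subset and sKO left of WT within each. The shifts differ by gene: Kdr and Egfl7 are higher in all of subset 2, Flt1 is higher in all of subset 1, and Esam is lowest in WT-1 (-0.25) and WT-2 (-0.26).

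Kdr and Egfl7 were also low relative to the other markers, a measure that no library scaling can change. Kdr amounted to 12.1%, 11.3%, 12.9% and 13.3% of the summed CPM of the other 9 in sKO-1 to sKO-4, against 15.1% and 16.3% in WT-1 and WT-2. Egfl7 amounted to 4.49%, 4.71%, 4.98% and 5.199% in the sKO libraries, against 5.25% and 6.09% in the WT libraries. In both cases every sKO value was below both WT values, but so were 25.9% of all other genes when divided by the summed markers, so 2 of 10 is no departure from the background. These ratios were picked after their values were seen and were given no test. The ratio of Tek to Tie1 CPM was 0.903 ± 0.0435 in sKO and 0.951 ± 0.307 in WT, with the 2 WT libraries, at 1.17 and 0.734, lying on either side of all sKO libraries.

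Ligands of these receptors were measured beside them. Of 11 vascular ligand genes 9 passed the count filter, 0 passed the test in either direction, and the median log2 fold change was 0.05 (-0.079 without WT-2). Vegfa, the ligand of the receptors from Kdr and Flt1, was at 35.2 ± 3.51 CPM in sKO and 31.7 ± 4.93 in WT (SD, n = 4 and n = 2; log2 fold change 0.15, SE 0.14, edgeR adjusted p = 0.760). Tgfb1, a ligand of the TGF-beta family, was at 16.9 ± 2.79 CPM in sKO and 20.3 ± 0.678 in WT (-0.27, SE 0.17, adjusted p = 0.607). Angpt2, which competes with Angpt1 for the Tek receptor, was named after its values were seen. It was at 8.19, 10.8, 11.2 and 12.002 CPM in sKO-1 to sKO-4, against 6.43 and 6.41 CPM in WT-1 and WT-2. The groups did not overlap, and the log2 fold change was 0.71 (SE 0.20), with an unadjusted p of 0.00860 and an adjusted p of 0.158. It passed with the subset term (adjusted p = 0.0225). Angpt1 was at 2.504 ± 0.378 CPM in sKO and 2.31 ± 0.401 in WT. Gdf2 and Bmp10, the high-affinity ligands of the endoglin receptor complex, had almost no counts and were not tested.

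Among other endothelial receptors and co-receptors 0 of 13 passed, 12 of 13 estimates were above 0, and the median was 0.22. Bmpr2, a receptor for bone morphogenetic proteins, was at 151 ± 20.005 CPM in sKO and 150 ± 18.1 in WT (log2 fold change 0.01, edgeR adjusted p = 0.995). Acvrl1, which encodes the receptor ALK1 that works with endoglin, was at 138, 112, 121 and 114 CPM in sKO-1 to sKO-4, against 93.3 and 101 CPM in WT-1 and WT-2. All sKO values were above both WT values (0.32, SE 0.11, adjusted p = 0.241). With the subset term Acvrl1 passed (adjusted p = 0.0464). The estimate of Nrp1, a VEGF co-receptor gene, was 0.46 in subset 2 alone and 0.06 in subset 1 alone, each with 1 WT library. Of 12 further surface and junction genes 0 passed, with 11 estimates above 0 and a median of 0.18. The sialomucin gene Cd34 was at 210 ± 14.3 CPM in sKO and 180 ± 23.7 in WT (0.23, SE 0.11, adjusted p = 0.450), and the junction gene Jam2 at 199 ± 26.3 CPM in sKO and 164 ± 32.9 in WT (0.28, SE 0.16, adjusted p = 0.535). Both passed with the subset term (adjusted p = 0.0318 for Cd34 and 0.00940 for Jam2). Both of these genes are also expressed outside endothelium.

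Of 9 endothelial transcription factor genes tested 0 passed, 6 estimates were above 0 and the median was 0.16; Sox17 was not analysed here. Leaving out WT-1 moved that median to 0.50, and leaving out WT-2 to -0.19, so its sign rested on which WT library was kept. The ETS factor gene Ets1 was at 47.8 ± 3.53 CPM in sKO and 50.9 ± 7.48 in WT (log2 fold change -0.09, edgeR adjusted p = 0.843), and Sox18, a factor of vessel and lymphatic development, at 21.8 ± 3.998 CPM in sKO and 19.5 ± 0.439 in WT (0.16, adjusted p = 0.817). Hhex and Erg were named after their values were seen. Hhex, a homeobox gene of endothelial and other cells, was at 11.0, 7.92, 6.35 and 8.54 CPM in sKO-1 to sKO-4, against 17.5 and 15.4 CPM in WT-1 and WT-2. Its groups did not overlap (-0.96, SE 0.22, unadjusted p = 0.00273, adjusted p = 0.0809). Hhex did pass, lower in sKO, with the subset term (adjusted p = 0.00661), in subset 1 alone (0.0349, where 5.15% of all genes were lower), in subset 2 alone (0.0375, where 3.22% were lower) and with library sizes from the Sertoli cell genes (0.0396). Erg, an ETS factor of endothelium, was at 8.56, 9.04, 10.7 and 6.92 CPM in sKO, against 19.4 CPM in WT-1 and 10.5 CPM in WT-2, so that only WT-1 stood clear of the sKO libraries (-0.77, SE 0.27, adjusted p = 0.263). In subset 1 alone, where WT-1 is the only WT library, the Erg estimate was -1.16, against -0.26 in subset 2 alone.

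Of 4 genes used as lymphatic endothelial markers, 1 was lower in sKO and 0 higher. It was Reln, which encodes the secreted protein reelin and is not limited to lymphatic vessels, at 1.96, 1.82, 2.77 and 3.64 CPM in sKO-1 to sKO-4, against 11.9 and 7.65 CPM in WT-1 and WT-2 (log2 fold change -1.94, SE 0.33, edgeR adjusted p = 0.0308). Its call was kept only without sKO-4 (adjusted p = 0.0339), and was lost without any other library (0.0547 without WT-2 to 0.323 without WT-1). Prox1, the defining transcription factor of lymphatic endothelium, was at 1.84 ± 0.234 CPM in sKO and 1.46 ± 0.237 in WT (0.33, adjusted p = 0.748). With the subset term Pdpn, another of the 4, passed too, higher in sKO (0.48, adjusted p = 0.0407). Pdpn was at 154 ± 23.4 CPM in sKO and 109 ± 16.6 in WT, far above Prox1, and its cells of origin were not tested. Lyve1 was at 0.910 ± 0.592 CPM in sKO and 1.23 ± 0.567 in WT (-0.43, edgeR adjusted p = 0.851). Of 9 pericyte and mural genes 0 passed, with a median of 0.18. Mcam was at 130 ± 24.8 CPM in sKO and 155 ± 29.9 in WT, and Cd248 at 78.9 ± 13.2 CPM in sKO and 69.7 ± 19.2 in WT (-0.25 and 0.18, adjusted p = 0.666 and 0.807). With the subset term 2 of these 9 passed higher in sKO and 1 lower. Higher were Pdgfrb (0.36, adjusted p = 0.0341) and Cspg4 (0.29, adjusted p = 0.0451), and lower was Mcam (-0.26, adjusted p = 0.0259). The pericyte median was 0.076 without WT-1.

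**Figure D5:**
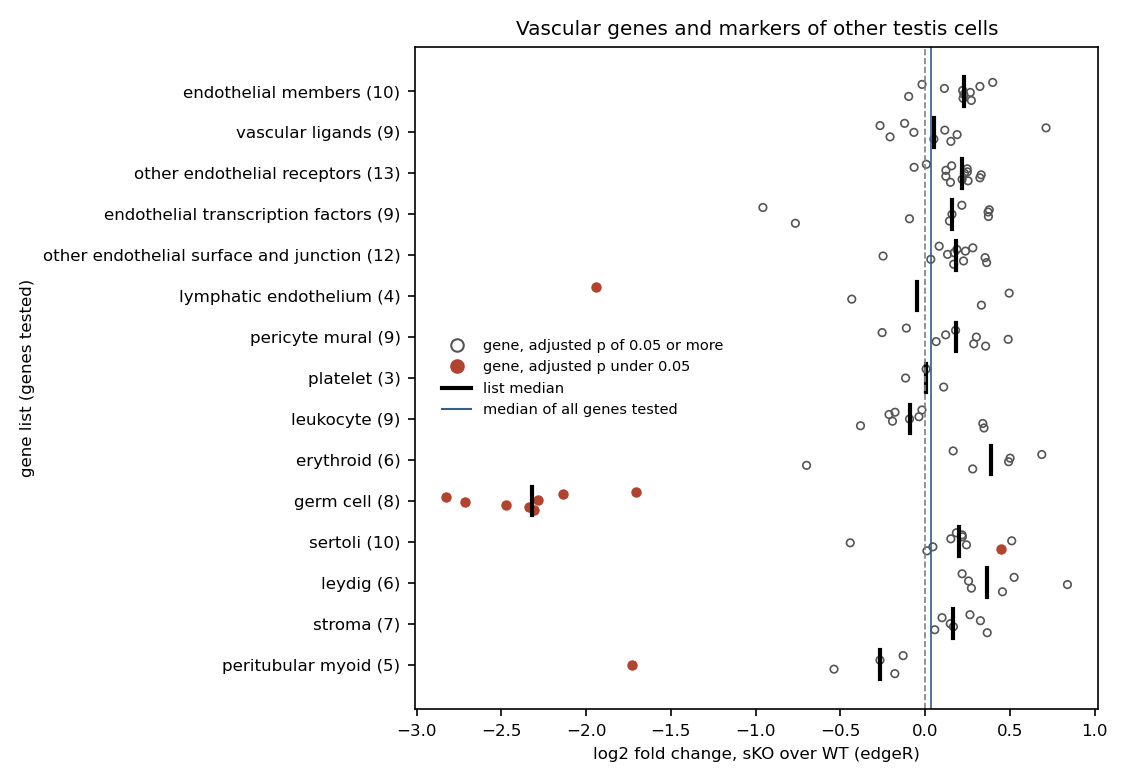
Log2 fold change of sKO over WT (edgeR) for each tested gene of the endothelial markers, 5 other vascular lists, pericytes, blood cells and other testis cells, with list medians as black bars. Endothelial markers (median 0.23), other receptors (0.22), surface genes (0.18) and pericyte genes (0.18) lie close together, and Sertoli cell (0.20) and stromal genes (0.17) lie near them. Leydig cell genes are higher (0.36), and the 8 germ cell genes stand apart at a median of -2.32.

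Markers of cells that share some of these transcripts, or that fill the rest of the tissue, were read in the same fit. Platelet genes summed to 20.3 to 27.9 CPM in sKO and 22.2 to 27.6 in WT, with Gp9 at 0 in all libraries, and 0 of 3 tested passed (Itgb3 at 0.01 and Pf4 at -0.12). Leukocyte genes summed to 59.7 to 73.8 CPM in sKO and 65.2 to 74.4 in WT, and 0 of 9 tested passed (Mrc1 at -0.18 and Csf1r at -0.19). Erythroid genes summed to 486, 510, 500 and 708 CPM in sKO-1 to sKO-4, against 405 and 401 CPM in WT-1 and WT-2. Of the 6 tested erythroid genes 0 passed, with a median log2 fold change of 0.39 (0.55 without WT-1, 0.15 without WT-2, and -0.13 over the 7 tested in subset 1 alone) and with the globin genes Hbb-bs and Hba-a1 at 0.50 and 0.69 (edgeR adjusted p = 0.178 and 0.126). Both passed with the subset term (0.0215 and 0.0228); reads of the near-identical Hba-a1 and Hba-a2 are divided uncertainly.

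Germ cell genes were lower in the same sKO libraries. The 8 members tested all passed, including Rbm44 (log2 fold change -2.71), Dazl (-2.34) and Rnf17 (-2.29), and they summed to 70.3 to 119 CPM in sKO and 396 to 565 CPM in WT. Sertoli cell genes summed to 3192 to 3551 CPM in sKO and 2644 to 3094 CPM in WT, with 1 of 10 higher (Amh, 0.45, edgeR adjusted p = 0.0429) and a median of 0.20. Leydig cell genes (0 of 6 passed, median 0.36, with Hsd3b1 at 0.26 and Cyp11a1 at 0.27) and stromal genes (0 of 7 passed, median 0.17, with Col3a1 at 0.15 and Col1a2 at 0.17) were read the same way. Leaving out WT-1 set the median of the Leydig list at 0.13 and that of the stromal list at -0.0085. Leaving out WT-2 set them at 0.82 and 0.34. The endothelial median ran from 0.17 to 0.27 over left-out libraries, and several other lists were as steady. Among these were the other endothelial receptors (0.12 to 0.22), the surface and junction genes (0.12 to 0.21) and the Sertoli cell genes (0.12 to 0.21). Of 5 peritubular myoid genes 1 was lower (Cnn1, -1.73, adjusted p = 0.0323), with a median of -0.27. With the subset term 4 of 10 Sertoli cell genes were called higher and 1 lower. In that fit 3 of 7 stromal genes were higher, 3 of 5 myoid genes were lower and 0 of 6 Leydig cell genes passed. Of all genes, 4.97% were called higher there and 8.65% lower. Without WT-1, where 1 WT library was left, the calls of the main fit in these other lists did not remain, those of the germ cell genes included. The germ cell median was still -2.05 there, and the Dazl estimate -2.07. The calls of Amh (adjusted p from 0.0696 to 0.323) and Cnn1 (from 0.0538 to 0.268) were lost without any 1 of the 6 libraries. The part that the share of germ cell, Sertoli cell or blood RNA plays in the endothelial estimates was not tested.

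Genes with the most similar course over the 6 libraries were sought among all tested genes by the root mean square distance in centred log2 CPM from the mean course of the 10 markers. The nearest were Metap1d (0.016), Zadh2 (0.018), Nfib (0.020), Cpt1a (0.023) and Tmem164 (0.023). The markers themselves lay farther from their own mean, from 0.064 for Eng and 0.069 for Pecam1 to 0.18 for Kdr, 0.18 for Esam and 0.21 for Flt1. The nearest genes were picked for the smallest distances among all tested genes, and the markers were not. These distances therefore do not show that the markers were less alike than other genes. The mean course of the markers, in log2 units around 0, stood at -0.0021, 0.0052, 0.17 and 0.08 over sKO-1 to sKO-4, against -0.17 in WT-1 and -0.08 in WT-2.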

How the data were processed

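Polyadenylated RNA of 6 testis libraries was measured. The authors deposited expected counts, estimates that can be fractional, for 57170 identifiers in 1 table. Per the submitters' processing notes, fastp, STAR, RSEM and the build mm39 were used, with roles, versions and annotation not given in the sources used here. Columns were tied to libraries by the labels' descriptions. Of the identifiers, 51742 (90.5%) took a symbol from GENCODE M21 (GRCm38), which also gave exon lengths and overlaps; 444 have no Ensembl form. The markers, gene lists and tests were chosen with earlier results of these data known.

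Expected counts were rounded, filtered with filterByExpr (minimum count 10; 17707 genes kept), scaled by TMM and fitted with edgeR 4.0.16 quasi-likelihood in R 4.3.3 on all 6 libraries without a covariate, as a two-sided test at a threshold of 0.05 on p-values adjusted by Benjamini-Hochberg across every gene tested. SE is the log2 fold change over the root of F, and 95% intervals use the fit's degrees of freedom. Log2 CPM carry a prior count of 2. Totals of 17.99 to 18.4 M leave counting error small for abundant genes; intervals of this kind cover the spread between libraries. The mean chi-square of a gene between 2 libraries of a group was 4.08 to 24.7, where sampling noise gives about 1, so no library plainly repeats another. Libraries from the same animal or RNA could also exceed 1, so this does not show that they are independent. Each library was counted as 1 sample, as labelled. The chi-square was lowest for sKO-3 with sKO-4 (4.08) and sKO-1 with sKO-2 (6.83), the pairs within a subset, and 20.3 or more between subsets. Genes named are the 10 markers, Mdm2, up to 3 called genes in each other list or else its 2 most abundant, and the 5 nearest in course. Others named in the text (Prox1, Lyve1, Angpt1, Angpt2, Gdf2, Bmp10, Gp9, Hhex, Erg, Nrp1, Pdpn, Pdgfrb, Cspg4 and the genes that overlap markers) were chosen after their values were seen. Alternatives were DESeq2 1.42.0, limma-voom (limma 3.58.1), other scalings and filters, unrounded counts, left-out libraries, a replicate block and the library subset. Each tool was tested on simulated counts.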

Additional observations from a re-analysis of the deposited data

How the results depend on the processing

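No endothelial marker passed the threshold in any of 19 alternatives except Cdh5. It passed with a term for the library subset (count of markers called 1) and in subset 2 alone (log2 fold change 0.31). The latter fit holds 1 WT library, and the subsets were read from these same libraries. Of 190 marker estimates under alternatives, 178 kept direction and side of the threshold, 2 were past it only there, and 10 changed sign. The median log2 fold change of the markers was 0.17 to 0.27 over left-out libraries. It was -0.027 with library size set to the Sertoli genes, a scaling that moved the median of all genes to -0.21. The markers' median minus that of all genes was 0.19 both in the main scaling and there. A change of library sizes shifts all genes nearly alike, so this difference could hardly change and is no separate check. With Sertoli library sizes Pecam1 (-0.031), Tek (-0.035), Eng (-0.023) and Flt1 (-0.14) changed sign. Egfl7 did so without sKO-1 (0.053), sKO-2 (0.028) or WT-2 (0.14), Kdr (0.0015) and Flt1 (-0.068) without WT-2, and Tek in subset 1 alone (-0.019); the cause was not tested. Over left-out libraries Egfl7 ran from -0.18 to 0.14, Kdr from -0.21 to 0.0015 and Flt1 from -0.068 to 0.28.

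Over all genes, 430 were called with edgeR as described, 797 by DESeq2, 1384 with Sertoli library sizes, 864 with the replicate block, 2411 with the subset term, 1228 in subset 1 and 834 in subset 2, and 3 (without WT-1) to 232 over left-out libraries. Genes of the other lists called numbered 11, against 31 with the subset term, 20 in subset 1 and 21 in subset 2, and 0 (without WT-1) to 9 over left-out libraries, so every such call, Reln included, was lost without WT-1. A lone WT library was taken to vary as much as the sKO group does. The germ cell median was still -2.05 without WT-1. Whether the replicate numbers pair libraries is not stated. Deviations of same-numbered libraries correlated at 0.42 for number 1 and -0.44 for number 2. With 2 WT libraries, their deviations from the group mean mirror each other, so these correlations cannot decide it. With the replicate block the median of the markers was 0.16 and 0 of 10 passed. In that block sKO-3 and sKO-4 have no WT library of the same number, so the fit rests on few libraries. Depth limits Emcn, where counting error was near the spread of the sKO libraries; for the other low markers Tek, Flt1, Tie1 and Esam counting error was 6.496% to 7.81%, under that spread. With 2 WT libraries the spread of that group is poorly known.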
